A study of Homo sapiens with 2 samples.

Results

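The regions described here are listed peaks of a YTHDF3 RNA immunoprecipitation that lie over a second peak, of a gene with another name, on the opposite DNA strand. They were selected on position alone from 1 deposited list of 18466 peaks: a peak qualified if its end minus its start was over 200 and at most 100000 bases and it shared at least 1 base with a peak of the other strand and another name. This chose 2486 peaks, 13.5% of the list, carrying 2003 of its 9275 gene names. They formed 1564 pairs, and in 1389 of these (88.8%) both peaks qualified. In the other pairs the partner lay outside the limits on span.

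The list came from untreated KYSE30 cells, an established human line of esophageal squamous cell carcinoma. RNA immunoprecipitation with an antibody to YTHDF3 (RIP) gave 1 library, and input RNA gave the other. Each peak carries the authors' fold enrichment of RIP over input, their p-value and their adjusted p-value, which compare the reads of these 2 libraries. There was no replicate and no second line, so no value below has an error between samples, and the depth behind a peak is unknown.

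YTHDF3 is a cytoplasmic protein of the YTH family that binds RNA carrying N6-methyladenosine (m6A), and it is known for effects on the translation and decay of its target RNAs. Genes on opposite strands can lie tail to tail, so that their transcripts converge and can share sequence at their 3′ ends, or head to head, so that they diverge from a common promoter region or overlap at their 5′ ends. A gene can also lie wholly inside a gene of the other strand. RNAs from such a pair are complementary where the genes overlap, and a read from a library that does not keep strand could belong to either.

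Whether the libraries kept strand is not given in the sources used here. The strand listed for a peak equalled the strand of its gene in the RefSeq tables for 14270 of 14271 peaks that could be compared. It was therefore read as the strand of the named gene. Of 10 markers of squamous epithelium, 6 had a peak in the list (KRT5, KRT14, TP63, SOX2, DSG3 and ITGB4), as did 1 of 4 immune markers (CD14) and 3 of 5 markers of stroma or endothelium (COL3A1, CDH5 and VIM). KRT6A, KRT17, PKP1 and PERP had none. A peak list does not show expression.

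To show what lay between the genes of head-to-head pairs, the plus strand between the starts of 5 such pairs is printed from RefSeq promoter windows of GRCh38.p14, with the bases covered by both peaks in capitals. The pairs were chosen after their values were seen, from those whose gene starts did not overlap. They are GSKIP and ATG2B (chr14:96363342-96363525), DDX20 and INKA2 (chr1:111755798-111755900), ZNF75A and TIGD7 (chr16:3305431-3305496), HMGXB3 and TIGD6 (chr5:150000655-150000738) and METTL15 and KIF18A (chr11:28108157-28108387).
GSKIP and ATG2B: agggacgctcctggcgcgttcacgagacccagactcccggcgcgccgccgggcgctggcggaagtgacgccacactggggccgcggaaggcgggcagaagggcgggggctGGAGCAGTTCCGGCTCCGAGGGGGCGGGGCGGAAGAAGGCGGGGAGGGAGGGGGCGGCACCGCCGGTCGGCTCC
DDX20 and INKA2: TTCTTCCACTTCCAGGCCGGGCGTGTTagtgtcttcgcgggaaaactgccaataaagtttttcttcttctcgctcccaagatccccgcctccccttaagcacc
ZNF75A and TIGD7: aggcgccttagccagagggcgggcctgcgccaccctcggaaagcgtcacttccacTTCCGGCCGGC
HMGXB3 and TIGD6: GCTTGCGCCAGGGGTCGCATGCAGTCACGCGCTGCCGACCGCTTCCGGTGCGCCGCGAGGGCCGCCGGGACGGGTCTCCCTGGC
METTL15 and KIF18A: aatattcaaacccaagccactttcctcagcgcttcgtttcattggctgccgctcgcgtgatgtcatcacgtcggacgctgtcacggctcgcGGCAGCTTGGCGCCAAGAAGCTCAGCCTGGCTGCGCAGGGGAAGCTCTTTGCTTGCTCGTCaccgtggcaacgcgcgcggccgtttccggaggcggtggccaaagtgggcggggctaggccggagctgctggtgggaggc
All 84 bases between HMGXB3 and TIGD6 lay under both peaks, as did 74 of 184 bases for GSKIP and ATG2B, 61 of 231 for METTL15 and KIF18A, 27 of 103 for DDX20 and INKA2, and 11 of 66 for ZNF75A and TIGD7. In each of these 5 pairs both peaks thus reached past the annotated starts of their genes. This did not hold for all head-to-head pairs. For PMPCA and ENTR1, EIF3L and ANKRD54, and QTRT2 and CCDC191, among others, 0 bases between the gene starts lay under both peaks. The letters GGACT, the core of a frequent m6A sequence, were in none of the 5 printed stretches on either strand. CCAAT occurred once, on either strand, in the stretch of DDX20 and INKA2 and once in that of METTL15 and KIF18A.

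A shared stretch could also hold a microRNA cluster. The LARP7 peak on the plus strand, over a gene whose protein binds 7SK RNA, had a fold enrichment of 7.03. Inside it lay a peak of 3398 bases listed as MIR302B on the minus strand, with a fold enrichment of 2.69. The stretch chr4:112646595-112649992 held 5 hairpins of 1 microRNA cluster, known from embryonic stem cells. The mature sequences of their 3′ arms, from the RefSeq table, are printed with the seed, bases 2 to 8, in capitals.
hsa-miR-302a-3p: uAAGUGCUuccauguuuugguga
hsa-miR-302b-3p: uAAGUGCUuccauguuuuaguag
hsa-miR-302c-3p: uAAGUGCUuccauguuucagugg
hsa-miR-302d-3p: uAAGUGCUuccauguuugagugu
hsa-miR-367-3p: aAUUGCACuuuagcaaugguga
The 4 members named miR-302 share the seed AAGUGCU, while miR-367-3p has another seed. In all, 9 hairpins lay inside the shared stretches of 5 pairs. The sources used here do not give the size of the RNA fragments, and these peaks are not read as a measure of the mature microRNAs.

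The order of the regions was read from strand and position. One region lay wholly inside the other in 844 of 1564 pairs (54.0%, exact 95% interval 51.5 to 56.5). Tail-to-tail pairs numbered 398 (25.4%, 23.3 to 27.7) and head-to-head pairs 322 (20.6%, 18.6 to 22.7). Of the 720 pairs that overlapped only in part, 55.3% (51.6 to 59.0) were tail to tail. Intervals cover counting error only, and since a peak can belong to several pairs, the pairs are not independent.

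**Figure D1:**
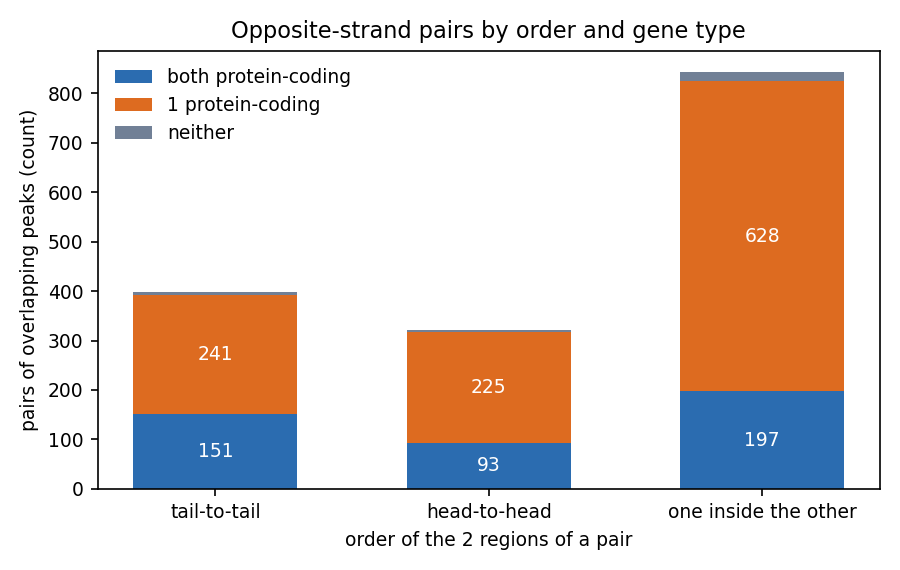
Number of opposite-strand pairs (vertical axis, count) in each order of the regions (horizontal axis), with bars split by whether both genes, 1 gene or neither gene is protein-coding in RefSeq. Pairs with 1 protein-coding gene were the most numerous in each order, 241 of the tail-to-tail pairs, 225 of the head-to-head pairs and 628 of the pairs with one region inside the other.

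Both genes were protein-coding in 441 pairs (28.2%), 1 gene was in 1094 (69.9%), and neither in 29 (1.85%). Pairs of coding genes made up 151 tail-to-tail pairs (37.9%), 93 head-to-head pairs (28.9%) and 197 pairs with one region inside the other (23.3%). Among pairs of coding genes 34.2% were thus tail to tail, against 22.0% among all other pairs.

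The regions shared a median of 869 bases (quartiles 434 and 2253.5), over a range from 1 to 81740. Tail-to-tail pairs shared a median of 1162.5 bases and head-to-head pairs 595. Where one region lay inside the other the median was 920.5 bases. The regions are spans on the genome, which can include introns, so these lengths are not lengths of shared RNA.

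**Figure D2:**
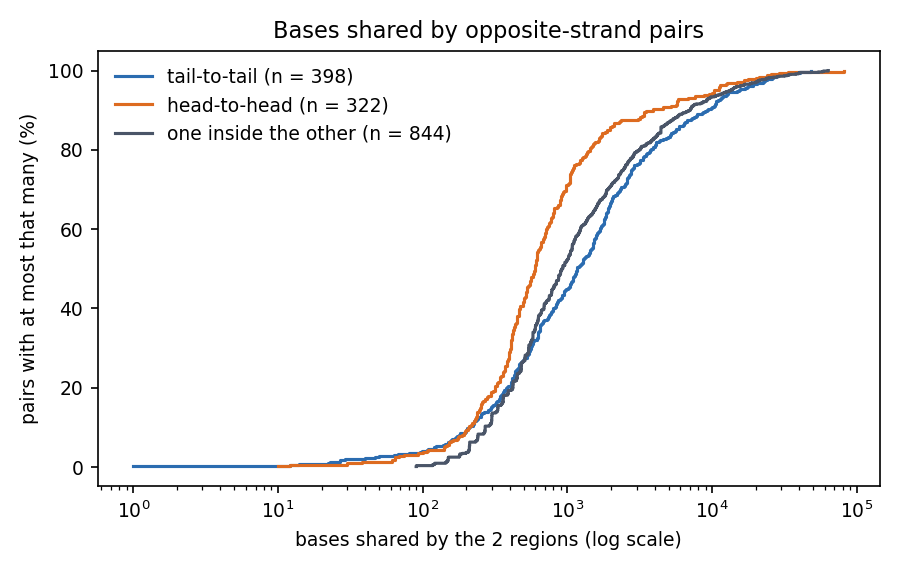
Cumulative share of pairs (vertical axis, percent) by the number of bases that the regions share (horizontal axis, log scale), with 1 line for each order. Head-to-head pairs lie to the left of tail-to-tail pairs over most of the range, with medians of 595 bases against 1162.5 for tail-to-tail pairs.

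The overlapping peaks had a median fold enrichment of 6.27 (quartiles 3.51 and 10.0, range 1.06 to 47.7), against 5.02 (2.68 and 8.78) for the 14911 peaks of the same span without such an overlap. Their median span was 2703 bases, against 3209 for the other peaks. An adjusted p under 0.05 was listed for 2027 of the 2486 (81.5%) and for 10980 of the 14911 (73.6%), where 74.4% of all peaks in the list had one. The fold enrichments and p-values come from the same comparison that placed the peaks, so these shares are a description and nothing is read from them. Fold enrichments take few values: the 2486 peaks had 453 distinct ones, and 7.53 alone was listed for 194 of them.

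The tail-to-tail pairs with the highest enrichment on both sides began with CIITA, the master regulator of MHC class II genes, and its neighbour DEXI. The CIITA peak (chr16:10927968-10929975) had a fold enrichment of 25.1 (the authors' adjusted p = 5.01e-33) and the DEXI peak (chr16:10928891-10941985) 22.6 (the authors' adjusted p = 1.58e-32), and they shared 1085 bases at their edges. FHOD3, an actin-organizing formin, and TPGS2, a subunit of the tubulin polyglutamylase complex, had 21.3 and 22.6 and shared 1869 bases. The clone-named gene AC002310.7 and the zinc finger gene ZNF785 both had 21.3, over 524 shared bases. CCAR2, whose protein inhibits the deacetylase SIRT1, and BIN3 both had 18.8. In each of these pairs the enrichments of the opposite strands differed by less than 1.5-fold, which the rule of ranking by the lower of both values favours.

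CENPP, a kinetochore protein, and IPPK, the kinase that makes inositol hexakisphosphate, were the fifth of these pairs. Their tail-to-tail peaks (CENPP at chr9:92613974-92614633, IPPK at chr9:92613992-92614651) were each 660 bases long, shared 642 bases, and were both listed at 17.6 with an adjusted p of 4.90e-04. On one side of them a pair of peaks of these genes had 7.53 on both strands, and on the other side a pair had 2.90 for CENPP and 2.97 for IPPK. The 3 further CENPP peaks, with 3.76, 6.27 and 5.44, lay inside 1 long IPPK peak of 55106 bases with 2.43. Short peaks at almost the same place thus had nearly equal values, and short peaks inside the long one did not.

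The longest tail-to-tail overlaps had unequal values. The PDE7A peak, over a cAMP phosphodiesterase gene, had a fold enrichment of 6.27 and shared 48130 bases with a peak of MTFR1, a regulator of mitochondrial fission, with 2.83. The peak of the formin gene DIAPH2 (3.76, over the span limit) shared 40476 bases with that of its antisense gene DIAPH2-AS1 (2.35). PRMT9, a protein arginine methyltransferase, had 7.53, against 2.09 for TMEM184C, over 34171 bases.

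Among head-to-head pairs the highest enrichment on both sides was that of TSC22D1, a transcription regulator induced by TGF-beta, and its antisense gene. The TSC22D1-AS1 peak had 32.6 (the authors' adjusted p = 1.26e-67) and the TSC22D1 peak 42.7, with an adjusted p listed as 0. The TSC22D1 peak, at 102884 bases, is over the span limit and counts only as a partner. GSKIP, which binds the kinase GSK3B, had 28.9 (the authors' adjusted p = 3.98e-14) and ATG2B, a lipid transfer protein of autophagy, 27.6 (the authors' adjusted p = 1.48e-06). They shared 419 bases around the promoter stretch printed above. The cytokine gene IL17D had 23.8, against 21.3 for RP11-172H24.4. LRRC8E, a subunit of the volume-regulated anion channel, had 18.8, against 20.1 for CTD-3193O13.12, and these regions shared 2112 bases. The fifth pair was PCDHA2 (25.1, over the span limit) and AC005609.16 (18.8).

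The longest head-to-head overlap was 81740 bases, between ZNF654 (chr3:88059304-88142746, 13.8) and CGGBP1, a protein that binds CGG repeats (chr3:88056615-88141043, 8.78). CYP1B1, a cytochrome P450 that metabolizes estrogens and xenobiotics, had 5.86 and CYP1B1-AS1 3.76, over 33509 bases. QTRT2, a subunit of the enzyme that puts queuine into tRNA, had 7.66 and CCDC191 4.18, over 29130 bases. The annotated genes QTRT2 and CCDC191 do not overlap, with 123 bases between their starts (chr3:114056614-114056736). The stretch shared by their peaks (chr3:114005833-114034962) lay on the CCDC191 side of these bases. The authors' adjusted p was 0.0776 for CYP1B1-AS1 and 0.0562 for CCDC191.

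Where one region lay inside the other, the smaller region had the lower fold enrichment in 514 of 844 pairs (60.9%), the higher in 269 (31.9%) and an equal one in 61 (7.23%). The medians were 5.52 for the inner and 6.90 for the outer regions. The inner gene was protein-coding in 48.6% of pairs and the outer gene in 72.5%. The highest pair was ZSCAN32, a zinc finger gene, with 37.6 (the authors' adjusted p = 1.58e-70), and LA16c-306E5.2 inside it with 38.9 (the authors' adjusted p = 6.31e-71). RAPH1, which encodes lamellipodin, had 35.1 over 99058 bases, and ABI2, a subunit of the actin-regulating WAVE complex, had 37.6 in a peak of 7230 bases within it. SYNM, an intermediate filament protein, and RP11-6O2.4 both had 28.9. RNF26, a ubiquitin ligase of the endoplasmic reticulum, and its clone-named partner both had 25.1. RAB3D, a small GTPase of regulated secretion, had 27.6, and CTC-510F12.6 had 25.1.

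ABI2 had the most qualifying peaks of any gene, 9 of its 10, with fold enrichments from 1.76 to 37.6, and was named for this count after its values were seen. All 9 lay over peaks of RAPH1, which had 8.78, 13.8 and 35.1. Where the regions nearly coincided, over 960 shared bases, both had 13.8. At the next place ABI2 had 37.6 and RAPH1, whose region was far longer, 35.1. Another ABI2 peak inside that RAPH1 region, of 1741 bases, had 10.5. Shorter ABI2 peaks inside the RAPH1 region with 8.78 had values from 1.76 to 8.78, the highest of them equal to that of RAPH1.

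**Figure D3:**
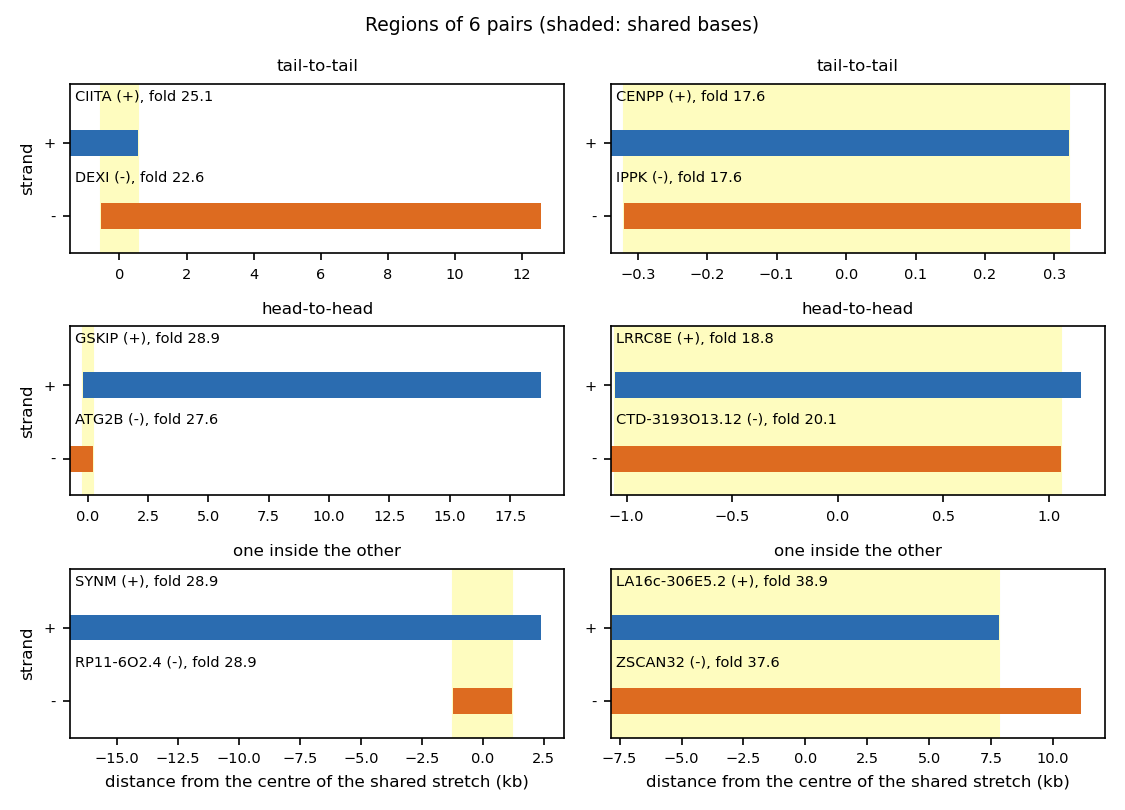
Regions of 6 pairs drawn to scale, with distance from the centre of the shared stretch in kilobases on the horizontal axis, strand on the vertical axis, and the shared stretch shaded. The panels show tail-to-tail pairs in the top row, head-to-head pairs in the middle row and pairs with one region inside the other in the bottom row. CENPP with IPPK and LRRC8E with CTD-3193O13.12 cover nearly the same bases, while CIITA with DEXI and GSKIP with ATG2B overlap at their edges.

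The longest inner region was that of ACMSD, an enzyme of tryptophan breakdown, inside CCNT2-AS1 (63488 bases, both 6.27). RP11-196H14.2 (4.39, 58766 bases) lay inside SRGAP1, a GTPase-activating protein (20.1). ACSBG2, an acyl-CoA synthetase (7.53, 57848 bases), lay inside RFX2, a transcription factor of ciliated cells (3.76). Of these 3 pairs the first had equal values, and the outer regions were all over the span limit. The authors' adjusted p was 0.0676 for ACMSD, 0.249 for ACSBG2 and 0.106 for RFX2.

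Of 24 pairs of opposite-strand genes listed from general knowledge, 10 had a peak on both genes and in 5 the peaks overlapped. DTX3L, a ubiquitin ligase, and PARP9, its partner protein, are known to share a promoter that responds to interferon. The DTX3L peak had 41.4 (the authors' adjusted p = 5.01e-67) and a PARP9 peak of 333 bases inside it 10.0. RANBP1, which binds the GTPase RAN, had 3.45, and 3 peaks of the tRNA methyltransferase gene TRMT2A over it had 2.38, 2.42 and 1.8. The repair endonuclease gene ERCC1 had peaks with 10.0 and 3.27 over those of POLR1G, a subunit of RNA polymerase I listed under its older name CD3EAP (3.07 and 8.16). The authors' adjusted p was 0.0776 for the ERCC1 peak with 10.0 and 0.128 for the TRMT2A peak with 1.8. MSH6, of DNA mismatch repair, had 13.8 (the authors' adjusted p = 1.26e-03) and FBXO11, a ubiquitin ligase subunit, 12.5 (the authors' adjusted p = 1.62e-03), tail to tail over 790 bases. The peaks of the other 5 pairs lay 2378 to 74502 bases apart, with TUG1 and MORC2 nearest and MCM4 and PRKDC farthest.

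Of 17 genes of the m6A machinery with a peak, 6 had an overlapping one (35.3%, exact interval 14.2 to 61.7). The share was 21.6% among all genes with a peak (2003 of 9265) and 15.7% among protein-coding genes with a peak. The interval includes both of these shares, so no excess is read from this count. METTL3, the catalytic m6A methyltransferase, had 5.02 (the authors' adjusted p = 0.0871) and its tail-to-tail neighbour TOX4 8.78 (the authors' adjusted p = 0.0501). METTL5, the methyltransferase of 18S rRNA, had 1.92, against 3.26 for SSB, the La protein. RBM15B, an adaptor of the methyltransferase complex, had 13.8 and 7.53, and DCAF1, a receptor of CUL4 ubiquitin ligases, had 10.0 and 6.27 at the same places. At the first place the authors' adjusted p was 0.0776 for DCAF1. At the second place it was 0.106 for RBM15B and 0.119 for DCAF1. WTAP, a regulatory subunit of the complex, had 6.90 and 7.53, and both peaks lay over that of SOD2, mitochondrial superoxide dismutase, with 6.27. CBLL1, a further subunit, had 10.0 with AC002467.7 at 2.51 (the authors' adjusted p = 0.0955 for AC002467.7). The demethylase gene ALKBH5 had 2.51 with RP11-258F1.1 at 1.56. In each pair the m6A gene had the higher value except METTL3 and METTL5.

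Of 45 mitosis genes with a peak, 10 had an overlapping one (22.2%, exact interval 11.2 to 37.1). The interval includes the shares among all genes with a peak (21.6%) and among protein-coding genes with a peak (15.7%). The highest values near PKMYT1, the kinase that restrains CDK1, belonged to its neighbour: PAQR4 had 16.8 and 28.9 in peaks that lay inside the PKMYT1 peak with 8.78. KREMEN2, a receptor of Wnt signalling, had 11.3 at the tail of the same PKMYT1 peak. NDE1, which binds dynein at the centrosome, had 12.6 and MYH11, the smooth muscle myosin heavy chain, 9.41, tail to tail over 22852 bases. KIF18A, a kinesin of chromosome alignment, had 2.51, against 10.0 for METTL15, a mitochondrial rRNA methyltransferase, over 61 head-to-head bases. CDC25C, a phosphatase that activates CDK1, had 1.64, against 7.53 for FAM53C.

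Some of the other mitosis genes had values close to their partner's and some did not. The spindle protein NUMA1 and IL18BP both had 5.02. NUMA1 also had 1.29 (the authors' adjusted p = 0.0513) with RP11-849H4.4 at 1.31, and 3.76 with the same gene at 2.89 and 1.79. The cohesin gene RAD21 and RAD21-AS1 both had 5.65, and RAD21 had 3.12 with UTP23 at 3.09. PLK1, the mitotic kinase, had 1.32 and CTD-2196E14.5 1.40. The cohesin subunit STAG1 had 3.45 with PCCB at 2.76 (the authors' adjusted p = 0.0676 for STAG1 and 0.119 for PCCB). PRC1, which bundles spindle microtubules, had 7.21 and 6.27 with PRC1-AS1 at 3.23, and 6.27 with PRC1-AS1 at 2.28.

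In the other lists an overlapping peak was found for 9 of 23 DNA repair genes (among them RAD50, PALB2, ERCC4 and FANCA), 5 of 37 chromatin regulators (ARID1A, CHD3, CHD4, KDM5A and EP300) and 0 of 8 ribosomal protein genes. The share was 21.6% among all genes with a peak and 15.7% among protein-coding genes with a peak. The repair genes had 39.1% and the chromatin regulators 13.5%. The intervals are wide, 19.7 to 61.5% for the repair genes and 4.54 to 28.8% for the chromatin regulators. That of the repair genes includes 21.6% but not 15.7%, and no excess is read from these counts.

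The fold enrichments of both peaks of a pair were set side by side. Over all 1564 pairs the median difference was 0.59 on the log2 scale, 157 pairs (10.0%) had equal values and 490 (31.3%) differed more than 2-fold. Spearman's rho between the strands was 0.44, over pairs that share libraries and, in part, bases. The likeness went with how much of the longer region was common to both. Where at most 10% was common (789 pairs) the median difference was 0.76 and rho 0.34. At 10 to 50% (538 pairs) they were 0.58 and 0.46, and at 50 to 80% (128 pairs) 0.42 and 0.52.

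Where over 80% was common, the median difference was 0.06 on the log2 scale and rho 0.93 over 109 pairs. Equal values were listed for 39 of these pairs (35.8%, 26.8 to 45.5), values within 10% of each other for 72 (66.1%), and for 30 the p-value was equal too. Examples of peaks with equal values, chosen after they were seen, are PIAS1 and CALML4 (11.3), LIG3 and RFFL (12.5), and BMP2K and PAQR3 (13.8). At other places in this group, PIAS1 had 6.90 with CALML4 at 7.11, and BMP2K had 5.65 with PAQR3 at 4.39. At a further place BMP2K and PAQR3 both had 10.0. Of the 109 pairs, 3 differed more than 2-fold: CARHSP1 had 17.6 with RP11-77H9.5 at 3.76, NUP62 had 18.8 with ATF5 at 4.35, and CTD-2231E14.2 had 3.76 with TPM4 at 1.65.

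**Figure D4:**
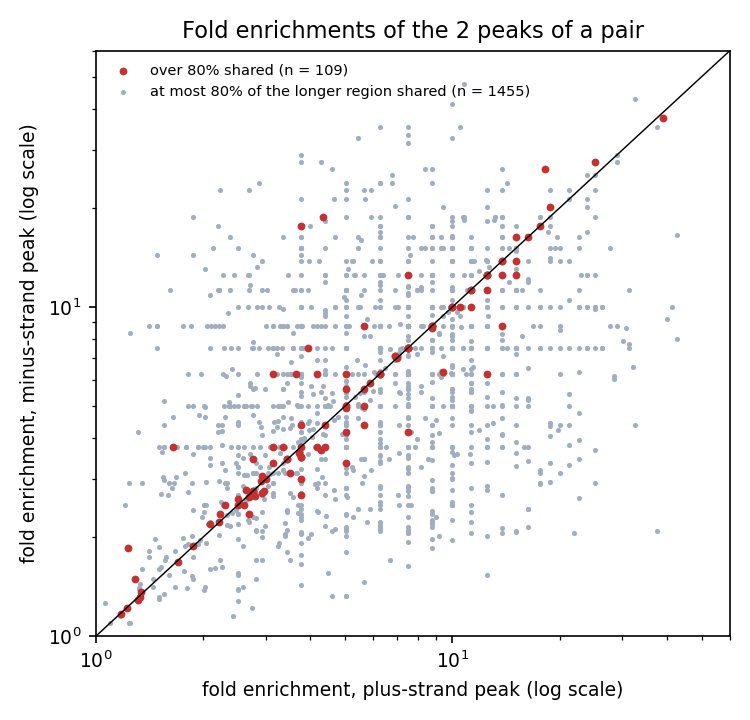
Fold enrichment of the minus-strand peak (vertical axis, log scale) against that of the plus-strand peak (horizontal axis, log scale) for all 1564 pairs, with the line of equal values. The 109 pairs with over 80% of the longer region in common (large points) lie nearer the line than the others: 72 of them have values within 10% of each other, and 3 differ more than 2-fold.

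Opposite-strand neighbours within 1000 bases that shared no base gave a comparison. They were not matched to the overlapping pairs in distance, span or order. Over 634 such pairs the median difference was 0.89 on the log2 scale, 11 (1.74%) had equal values and rho was 0.20. Overlapping peaks of different names on the same strand, without the clustered protocadherins, gave values near those of the opposite-strand pairs: over 492 pairs 10.6% had equal values, and over the 65 with over 80% in common 32.3% had, with rho 0.91. Of 63 opposite-strand pairs with both boundaries within 50 bases, 30 (47.6%) had equal values, and rho was 0.97. With the strand setting not given, enrichment of 1 RNA listed under both genes and enrichment of both RNAs cannot be told apart in these pairs.

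**Figure D5:**
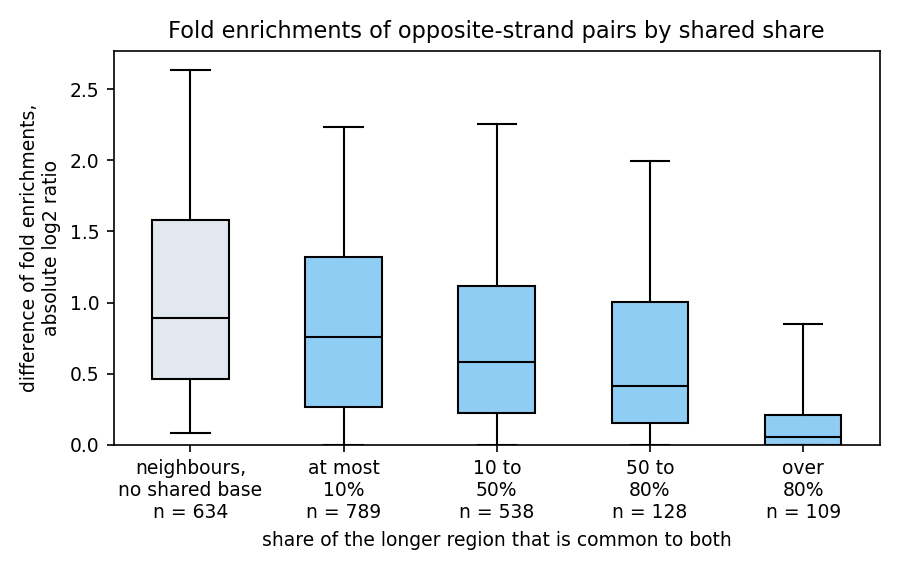
Difference between the fold enrichments of opposite-strand peaks (vertical axis, absolute log2 ratio) for neighbours without a shared base and for overlapping pairs grouped by the share of the longer region that is common to both (horizontal axis). Boxes span the quartiles with the median as a line, and whiskers reach the 5th and 95th percentiles. The median is 0.89 for the neighbours and 0.06 for pairs with over 80% in common.

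In 341 pairs the values differed more than 2-fold while both peaks had an adjusted p under 0.05. Of the 490 that differed so with and without such a p, 302 had at most 10% of the longer region in common and 152 had 10 to 50%. A further 33 had 50 to 80% and 3 had over 80%. Over all 1564 pairs, 789 had at most 10% in common and 538 had 10 to 50%. The share that differed more than 2-fold was 38.3% of pairs with at most 10% in common and 28.3% at 10 to 50%. It was 25.8% at 50 to 80% and 2.75% over 80%. In 287 of the 490 one region lay wholly inside the other, so all bases of the shorter region were shared. This order made up 844 of all 1564 pairs. Why the values differed was not tested. An example among the highest peaks, named after its values were seen, is DSEL, of the dermatan sulfate epimerase family, which had 47.7 with CTD-2541J13.2 at 10.8, over 1080 of the 7442 bases of the longer region. In other pairs of this size the partner's enrichment was less certain. FGD5-AS1 had 41.4 with the nuclear receptor gene NR2C2 at 10.0 (the authors' adjusted p = 0.0776 for NR2C2), and SGSH, the lysosomal heparan N-sulfatase, had 35.1 with CARD14 at 6.27 (the authors' adjusted p = 0.335 for CARD14). A fold enrichment of at least 20 was listed for 89 of the 2486 overlapping peaks (3.58%), against 413 of the 14911 others (2.77%).

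The order of the peaks was compared with that of the genes for the 707 pairs (45.2%) with both genes in RefSeq. The genes themselves overlapped in 555 of these (78.5%), and the other 152 lay a median of 942 bases apart. Of 217 tail-to-tail pairs of peaks, 187 (86.2%) were on genes that are tail to tail. Of 156 head-to-head pairs of peaks, 116 (74.4%) were on head-to-head genes. Of 334 pairs with one peak inside the other, 85 (25.4%) were on genes arranged so, and 189 (56.6%) were on tail-to-tail genes. The shared stretch held an annotated 3′ end in 102 of the 217 tail-to-tail pairs (47.0%) and in 3 of the 156 head-to-head pairs. It held an annotated 5′ end in 81 of the head-to-head pairs (51.9%) and in 6 of the tail-to-tail pairs.

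The other way round, 1473 pairs of overlapping protein-coding genes on opposite strands were taken from the RefSeq tables, as far as these give the strand. Both genes had a peak in 403 pairs (27.4%), and in 171 of the 403 (42.4%, 37.6 to 47.4) the peaks overlapped. Tail-to-tail genes had a peak on both in 239 of 696 pairs (34.3%), head-to-head genes in 111 of 453 (24.5%), and genes one inside the other in 53 of 324 (16.4%). Overlapping peaks followed in 112 (46.9%), 39 (35.1%) and 20 (37.7%) of these.

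Promoter windows from 250 bases before to 50 after the start were found for 149 of the 181 coding genes in head-to-head pairs. GGACT, searched on both strands, was in 46 of them (30.9%, 23.6 to 39.0), against 111 of 221 windows of tail-to-tail genes (50.2%, 43.4 to 57.0) and 45.8% of protein-coding windows. CCAAT, searched likewise, was in 40.3% of head-to-head windows, 36.2% of tail-to-tail windows and 36.4% of protein-coding windows. The median GC content was 65.7%, 65.3% and 62.7% in the same order. Windows of 1 pair can overlap and hold the same letters, and a match marks letters, not a modified or bound site.

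By gene type, 1612 of the overlapping peaks (64.8%) were on protein-coding genes, against 14244 of the 14911 others (95.5%). Long noncoding or antisense genes had 195 (7.84%), against 176 of the others (1.18%). Names without a match in RefSeq, mostly clone names, had 671 (27.0%), against 455 of the others (3.05%). Of 320 peaks of the same span on genes named as antisense, divergent or intronic transcripts (-AS, -DT or -IT), 182 (56.9%) overlapped an opposite-strand peak, with a median fold enrichment of 5.65. Antisense genes are named for lying across another gene, so their share follows in part from their names.

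Within protein-coding genes the median fold enrichment was 6.27 for overlapping peaks, against 5.02 for the others. Within long noncoding or antisense genes it was 5.65, against 7.53 for the others, and within unmatched names 5.65, against 7.25. The higher median of the overlapping peaks as a whole was therefore seen in coding genes and not in these other types. In the 1094 pairs of 1 coding gene and 1 other gene, the coding peak had the higher value in 581 (53.1%), the lower in 403 (36.8%) and an equal one in 110 (10.1%). The coding peaks were also longer, with a median of 6952.5 bases against 2577.5 for their partners.

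Most overlapping peaks had 1 partner (2158, 86.8%), 251 had 2 and 77 had 3 or more. The most partners belonged to AC005609.17 (13) and AC005609.18 (12), which lie antisense in the protocadherin cluster of chromosome 5 and had fold enrichments of 10.0 and 7.53. Peaks of several protocadherin genes cover the same bases there. NAA38, a subunit of an N-terminal acetyltransferase, followed with 9 partners and 2.93. The share of peaks that overlapped was highest on chromosome 16 (219 of 981, 22.3%), chromosome 22 (19.9%), chromosome 17 (18.9%) and chromosome 19 (18.0%). Among chromosomes with more than 200 such peaks it was lowest on chromosome X (26 of 450, 5.78%), followed by chromosomes 20 (9.33%) and 9 (9.36%).

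At the limits of the selection, the shortest peaks chosen were those of RP11-403P17.6 (206 bases, 4.23), ADIRF (208 bases, 3.32) and CTB-131K11.1 (208 bases, 1.82). Just under the limit lay CTB-39G8.3 (200 bases, 1.60), AC016999.2 (198 bases, 2.12) and RP1-261G23.7 (188 bases, 7.17), which also overlapped a peak of the other strand. The longest chosen were NINJ2 (99484 bases, 6.27), ADCY3 (99266 bases, 4.55) and RAPH1 (99058 bases, 35.1). Just over the limit, UVRAG, EVC and TOM1L2 (4.66, 5.68 and 3.18) had no such overlap. The smallest overlap was 1 base, between ANGPTL4 (15.1) and RAB11B-AS1 (11.3), followed by 10 bases between PMPCA (5.27) and ENTR1 (3.21) and 12 bases between ELF3 (5.02) and RP11-465N4.4 (3.96).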

How the data were processed

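KYSE30 cells without treatment gave 1 RIP library with an antibody to YTHDF3 and 1 input library. The titles give the cells, YTHDF3, and which library is RIP or input. All values were taken from the deposited list of peaks of RIP over input. Per the file headers, the list gives each peak its fold enrichment, which is a ratio, a p-value and an adjusted p-value. The listed length of a region equals its end minus its start plus 1 for all 18466 deposited peaks. The build is hg38, per the submitters' processing notes. The sources used here do not give the aligner, peak caller, annotation or strand setting. Depth is unknown, so fold enrichments are given without an error.

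Of the peaks, 17397 lay within the span limits, 354 below and 715 above. Overlaps were found with pandas 2.3.3 and numpy 2.4.6 in Python 3.11.15 and tested on simulated data. Listed starts were taken as counted from 0, since 786 lay 1 base below their gene's start and 68 equalled it, and are printed with 1 added; spans and overlaps use end minus start. Names were matched to RefSeq tables of GRCh38.p14 on the same chromosome and within 100000 bases: 16536 peaks matched by symbol, 762 by an older symbol and 1168 not at all. Gene strand came from the promoter table, which does not cover every chromosome. Exact (Clopper-Pearson) 95% intervals from scipy 1.17.1 cover counting error only.

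The peaks, gene lists and pairs were chosen with earlier results of these data known. No test was run, since each group has 1 library. For each order the text names the 5 pairs with the largest lower fold enrichment and both adjusted p under 0.05 and the 3 with the most shared bases. It also names listed textbook pairs, peaks at the selection limits, the 3 peaks with most partners, and genes of the m6A and mitosis lists. Other names were chosen after their values were seen. Alternatives changed the partner's span, the shared bases required, the threshold on peaks, the gene types and the counting of pairs.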

Additional observations from a re-analysis of the deposited data

How the results depend on the processing

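Of 61 recomputed values, 43 stayed within 1.5 times the reported count or within the reported interval, among them each value with the partner held to the span limits, with at least 100 shared bases, or without protocadherin names (PCDH), the last chosen after seeing the data. Requiring the fold enrichment of both peaks to reach the median of all peaks left 1219 overlapping peaks and 755 pairs, 50.5% of them with one region inside the other and 16.8% with equal values; 83.3% of these peaks had an adjusted p under 0.05, and their median fold enrichment was 8.78 by construction. Keeping pairs of 2 protein-coding genes left 755 peaks and 441 pairs, with 34.2% tail to tail, 44.7% one inside the other, 83.8% with an adjusted p under 0.05 and a median of 6.59. Requiring 50% of the shorter region to be shared gave 19.4% tail to tail, 14.2% head to head and 66.4% one inside the other, by construction favouring the last. With 1 pair per pair of names, 22.9% were head to head and 50.2% one inside the other. Requiring an adjusted p under 0.05 on both sides makes that share 100% by construction. For the remaining changes the cause was not tested. No paired analysis was possible because each group has 1 library and the list has no column per sample. Without replicates or counts per peak, peaks with few input reads could not be recognised, and their fold enrichments may be imprecise.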

Other observations

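Among the HOX genes, which set position along the body axis, 9 of 35 peaks of the same span overlapped an opposite-strand peak (25.7%, exact 95% interval 12.5 to 43.3). The interval includes the share over all peaks of the same span, 14.3%. The 9 peaks had a median fold enrichment of 8.78 and a range from 5.02 to 33.2. The family was chosen after its values were seen. In the HOXA cluster on chromosome 7, 1 peak of the antisense gene HOXA-AS3 with 7.53 lay over peaks of HOXA3 (7.53), HOXA4 (33.2), HOXA5 (8.78) and HOXA6 (5.02). HOXA4 stood above its partner and shared 409 bases with it head to head. HOXA11 and HOXA11-AS were both listed with 8.78 and an adjusted p of 0.142. HOXB6 had 15.1 with HOXB-AS3 at 3.76, and HOXC9 had 8.78 with HOXC-AS2 at 5.02. The authors' adjusted p was 0.0631 for HOXA5 and 0.0776 for HOXC-AS2. Zinc finger genes named ZNF had 80 of 751 such peaks overlapping (10.7%), with a median of 7.53.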
